A study of Mus musculus with 20 samples.

Results

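The 7 genes described here are the Reelin pathway genes Reln, Vldlr, Lrp8 and Dab1 and 3 genes used as marks of Reelin-producing cells of the cortical surface, Trp73, Lhx5 and Ndnf. They were taken from the 51912 gene identifiers of the 24 h count table and the 19722 of the 4 h table, and all 7 were listed in both and passed the filter on low values in both. They were chosen because Reln ranked high in the comparison of knockout with heterozygous slices at 24 h, so that comparison is given below for them as a description, with no test.

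RNA was sequenced from slices of mouse forebrain cut at postnatal day 4, kept in culture and exposed to medium with 5% horse serum. The genotypes concern Tnfaip6, whose product TSG-6 is secreted and modifies hyaluronan. The 4 h set has 3 libraries of wild-type slices (WT) and 3 labelled knockout (KO). The 24 h set has, among libraries labelled female, 3 heterozygous (Het) and 4 KO, and the same numbers among those labelled male. Every slice received serum, so no group shows the level without it, and the control genotype was WT at 4 h and Het at 24 h by the sample titles. The treatment text of the 24 h samples speaks of WT slices instead of Het, and the titles were followed. The sources used here do not describe the knockout allele, the strain, or from how many animals each group was drawn, so a p-value measures only the spread between these libraries.

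Reelin is a large secreted glycoprotein. In the developing cortex it is released by Cajal-Retzius cells, transient neurons under the pial surface, and after birth increasingly by GABAergic interneurons, including neurogliaform cells of layer I. It binds VLDLR and APOER2 (the product of Lrp8) on migrating neurons, which leads to phosphorylation of the adaptor DAB1 by SRC-family kinases and, further on, to changes in PI3K signalling and the cytoskeleton. Later it acts at synapses on NMDA receptors. Loss of Reelin, of DAB1 or of both receptors disturbs cortical layering. Trp73 and Lhx5 encode transcription factors of Cajal-Retzius cells, and Ndnf encodes a secreted factor found in Cajal-Retzius cells and in neurogliaform interneurons.

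The libraries held 11411532 to 15030171 reads at 4 h and 8482933 to 18051300 at 24 h. Tnfaip6 gave 76, 94 and 83 reads in the WT libraries and 37, 83 and 73 in the KO-labelled libraries at 4 h. At 24 h it stood at 3.43 to 6.42 CPM (read counts scaled to an equal library total) in Het and 5.14 to 8.09 in KO-labelled libraries, so its reads do not check the labels. The library labelled KO female 2 held 0 reads of Xist, made from the inactive X chromosome, and 826 of the Y-linked gene Ddx3y, against its label. The 4 h titles give no sex. Xist had 5655 reads in WT 1 and 2355 in KO 1, and 0 to 3 in the other 4 h libraries, so both 4 h groups mixed libraries with and without Xist. Transcripts of the choroid plexus, the epithelium that makes cerebrospinal fluid, were abundant in KO female 1, KO female 3 and KO male 3, where 8 of its marker genes summed to 1547, 2816 and 501 CPM against 18.1 to 29.5 CPM in the other 11 libraries. In bulk RNA, fewer cells of a type and less RNA per cell cannot be told apart.

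Per length of exon, the receptors and adaptor were the most abundant of the 7. At 24 h the mean over 14 libraries was 18.2 ± 0.571 (SD) RPKM (read counts scaled by exon length and library total) for Lrp8, 15.4 ± 1.58 for Dab1 and 14.9 ± 0.915 for Vldlr. Reln stood below them at 6.94 ± 1.14 RPKM. Ndnf followed at 2.94 ± 0.441, Trp73 at 1.60 ± 0.259 and Lhx5 at 0.654 ± 0.334 RPKM. Dab1 and Vldlr did not differ beyond their spread, and the highest Lhx5 library (1.32 RPKM) reached above the lowest Trp73 library (1.17 RPKM). The order was the same at 4 h, from 21.2 ± 1.61 RPKM for Lrp8 to 0.416 ± 0.187 for Lhx5. The coefficient of variation over the 14 libraries at 24 h was 3.13% for Lrp8, 6.15% for Vldlr and 10.3% for Dab1. It was 16.4% for Reln, 15.005% for Ndnf, 16.1% for Trp73 and 51.1% for Lhx5, which rested on 9 to 63 reads a library.

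Reln (ENSMUSG00000042453), the ligand, lies on chromosome 5 at 21884454 to 22344702 of GRCm38, minus strand. An exon of it overlaps one of Gm10475 on the opposite strand. As the gene of the 7 with the largest KO minus Het difference relative to its error, its sequence upstream of the start is shown, from RefSeq on GRCm38.p6, chr5:22344706-22344955, minus strand, written 5′ to 3′, with each GGGCGG (the core of a GC box) in capitals.
Reln upstream: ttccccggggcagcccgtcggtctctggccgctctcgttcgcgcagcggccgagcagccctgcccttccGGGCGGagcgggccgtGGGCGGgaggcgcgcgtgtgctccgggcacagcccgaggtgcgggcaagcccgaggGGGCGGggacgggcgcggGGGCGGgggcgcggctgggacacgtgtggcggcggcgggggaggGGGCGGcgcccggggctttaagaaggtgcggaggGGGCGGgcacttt
The 250 bases hold 6 matches to GGGCGG as written and 0 to its reverse complement CCGCCC, none overlapping another. They hold 37 CpG pairs and 80.0% G and C, against medians of 6 CpG pairs and 52.4% over 32851 upstream sequences of the same length, of which 32.7% hold the motif on either strand and 0.886% hold it as many times. The match is a description of the sequence, and nothing measured here bears on binding to it.

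Reln was higher in KO-labelled than in Het slices at 24 h in most libraries. In Het females it stood at 163.5, 145.1 and 152.9 CPM, and in KO-labelled females at 213.5, 188.0, 147.8 and 198.9 CPM. In Het males it stood at 129.7, 138.3 and 127.5 CPM, and in KO-labelled males at 161.8, 198.5, 176.0 and 164.7 CPM. All KO-labelled male libraries lay above all Het male libraries, as 3.4% of the 16013 genes tested did, whereas among females KO female 3 lay within the Het range. The log2 fold change was 0.35 ± 0.07 (SE) over both sexes, 0.28 ± 0.10 in females and 0.41 ± 0.10 in males. In females it was also 0.28 without KO female 2, whose sex-linked reads go against its label. Over both sexes Reln stood at rank 5 of 16013 genes by p, and at rank 501 by log2 fold change counted from the most positive. Without KO female 3 its log2 fold change over both sexes was 0.40, and without the 3 libraries rich in choroid plexus reads 0.37. No gene was called in that comparison at an adjusted p under 0.05 (0% of 16013 by edgeR's quasi-likelihood test, 1060 at an unadjusted p under 0.05, and 10 called by DESeq2).

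**Figure D1:**
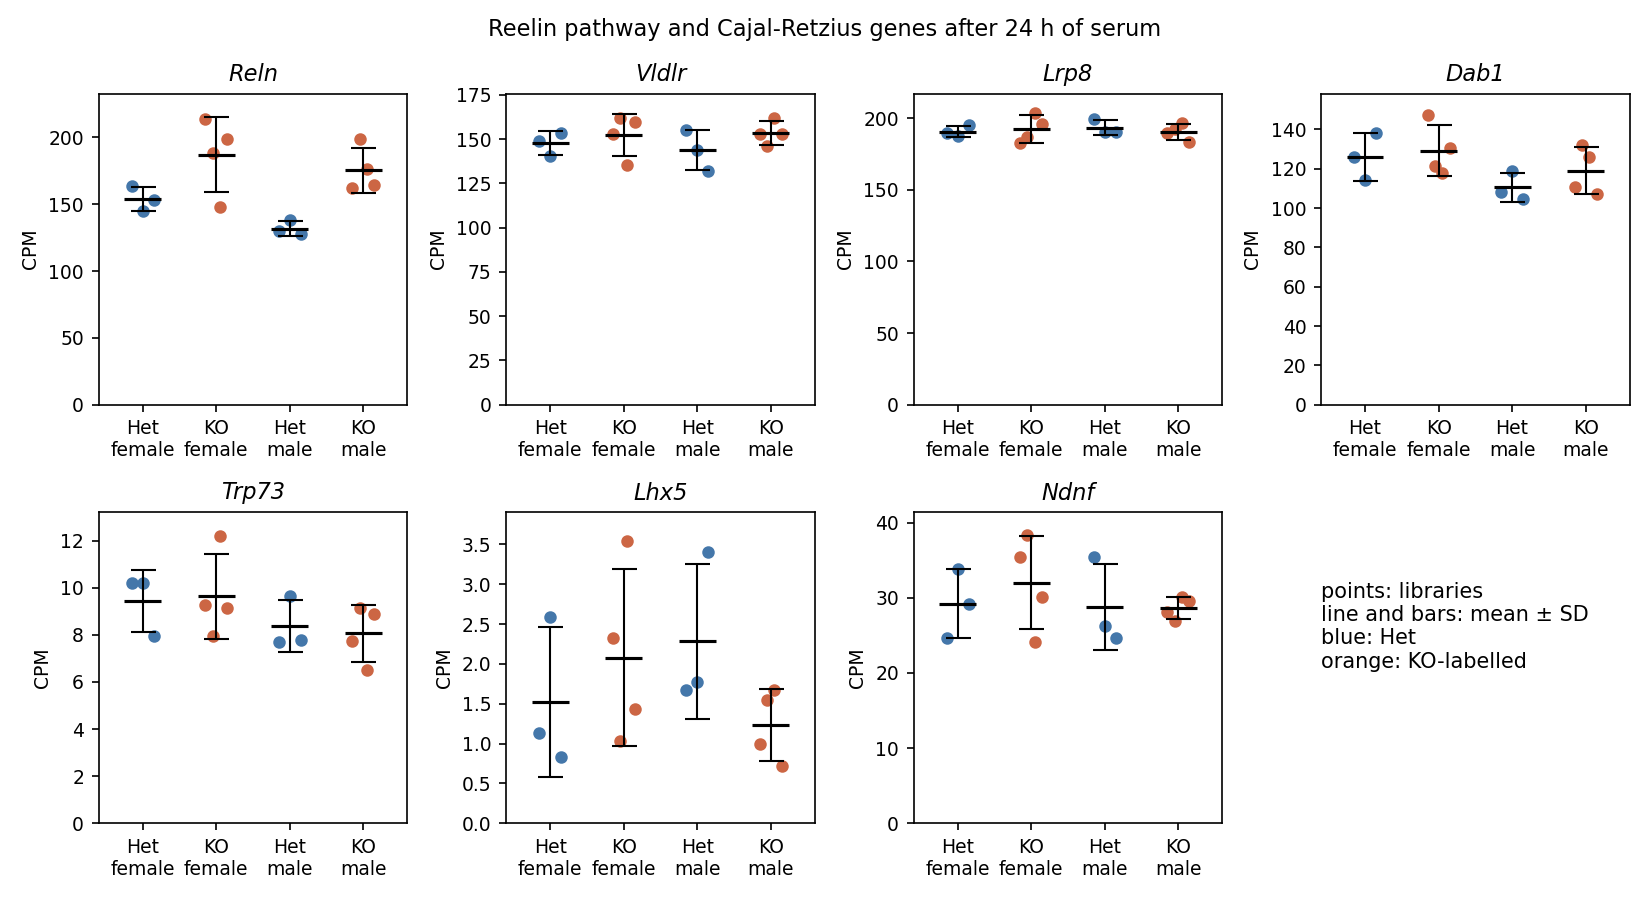
Level of each of the 7 genes at 24 h in CPM (y axis) by group (x axis), with 1 point a library and the mean ± SD as bars. Reln lay at 127.5 to 138.3 CPM in Het males and 161.8 to 198.5 in KO-labelled males, and among KO-labelled females 1 library stood at 147.8, whereas the groups overlapped for both receptors and Dab1. The male groups of Lhx5 did not overlap either, with KO-labelled males lower.

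At 4 h no such difference was seen. Reln had normalised read counts of 2367, 1815 and 2259 in WT and 2066, 2377 and 1772 in KO-labelled libraries, so the groups spanned nearly the same range. The log2 fold change was -0.05 ± 0.11 (limma, adjusted p = 0.874), and it turned positive (0.02 and 0.06) when WT 1 or KO 3 was left out. Between the sexes at 24 h, the mean was 172.8 ± 27.2 CPM (SD, n = 7) in libraries labelled female and 156.6 ± 26.3 (n = 7) in those labelled male, a male minus female log2 fold change of -0.16 ± 0.07 (edgeR, adjusted p = 0.998). The KO minus Het difference of males exceeded that of females by 0.13 ± 0.14 on the log2 scale (edgeR, adjusted p = 0.977). That difference ran from 0.029 without KO female 3 to 0.20 without KO female 1, and was 0.064 without KO male 2. Without KO female 2, whose sex-linked reads go against its label, it was 0.13, and the male minus female log2 fold change was -0.15.

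The receptors varied little at 24 h. Lrp8 (chromosome 4, 107802261 to 107876840, plus strand) encodes APOER2, the receptor tied to synaptic Reelin signalling. It ranged from 187.3 to 199.5 CPM over 6 Het libraries (median 190.2) and from 182.5 to 203.8 over 8 KO-labelled libraries (median 190.8), a log2 fold change of -0.00 ± 0.04. Vldlr (chromosome 19, 27216484 to 27254231, plus strand), the second receptor, ranged from 132.1 to 155.1 CPM in Het (median 146.5) and 135.4 to 161.9 in KO-labelled libraries (median 152.9), a log2 fold change of 0.07 ± 0.05. The ranges of both receptors overlapped between genotypes.

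At 4 h Lrp8 stood at 2746, 2574 and 2910 normalised reads in WT and 3029, 3199 and 2924 in KO-labelled libraries. The groups did not overlap, as was so in this direction for 10.1% of the 15181 genes tested, and the log2 fold change of 0.15 ± 0.07 did not pass (limma, adjusted p = 0.340). Vldlr stood at 1748, 1659 and 1950 in WT and 1830, 2051 and 1835 in KO-labelled libraries, with overlapping groups and a log2 fold change of 0.09 ± 0.08 (limma, adjusted p = 0.624). Neither receptor differed by sex past the threshold at 24 h (male minus female 0.00 ± 0.04 for Lrp8 and -0.01 ± 0.05 for Vldlr, edgeR adjusted p = 0.999 and 0.998).

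Dab1 (chromosome 4, 103619359 to 104744844, plus strand) encodes the adaptor that both receptors recruit. At 24 h it ranged from 104.5 to 138.1 CPM in Het libraries (median 116.4) and 107.1 to 147.1 in KO-labelled libraries (median 123.7), with a log2 fold change of 0.07 ± 0.07. At 4 h it stood at 1749, 1811 and 1936 normalised reads in WT and 2054, 2230 and 1879 in KO-labelled libraries. KO 3 lay within the WT range, and the log2 fold change was 0.16 ± 0.08 (limma, adjusted p = 0.364). Libraries labelled male had 115.3 ± 10.5 CPM and those labelled female 127.8 ± 11.7 (SD, n = 7 each), a difference of -0.15 ± 0.07 on the log2 scale (edgeR, adjusted p = 0.998).

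**Figure D2:**
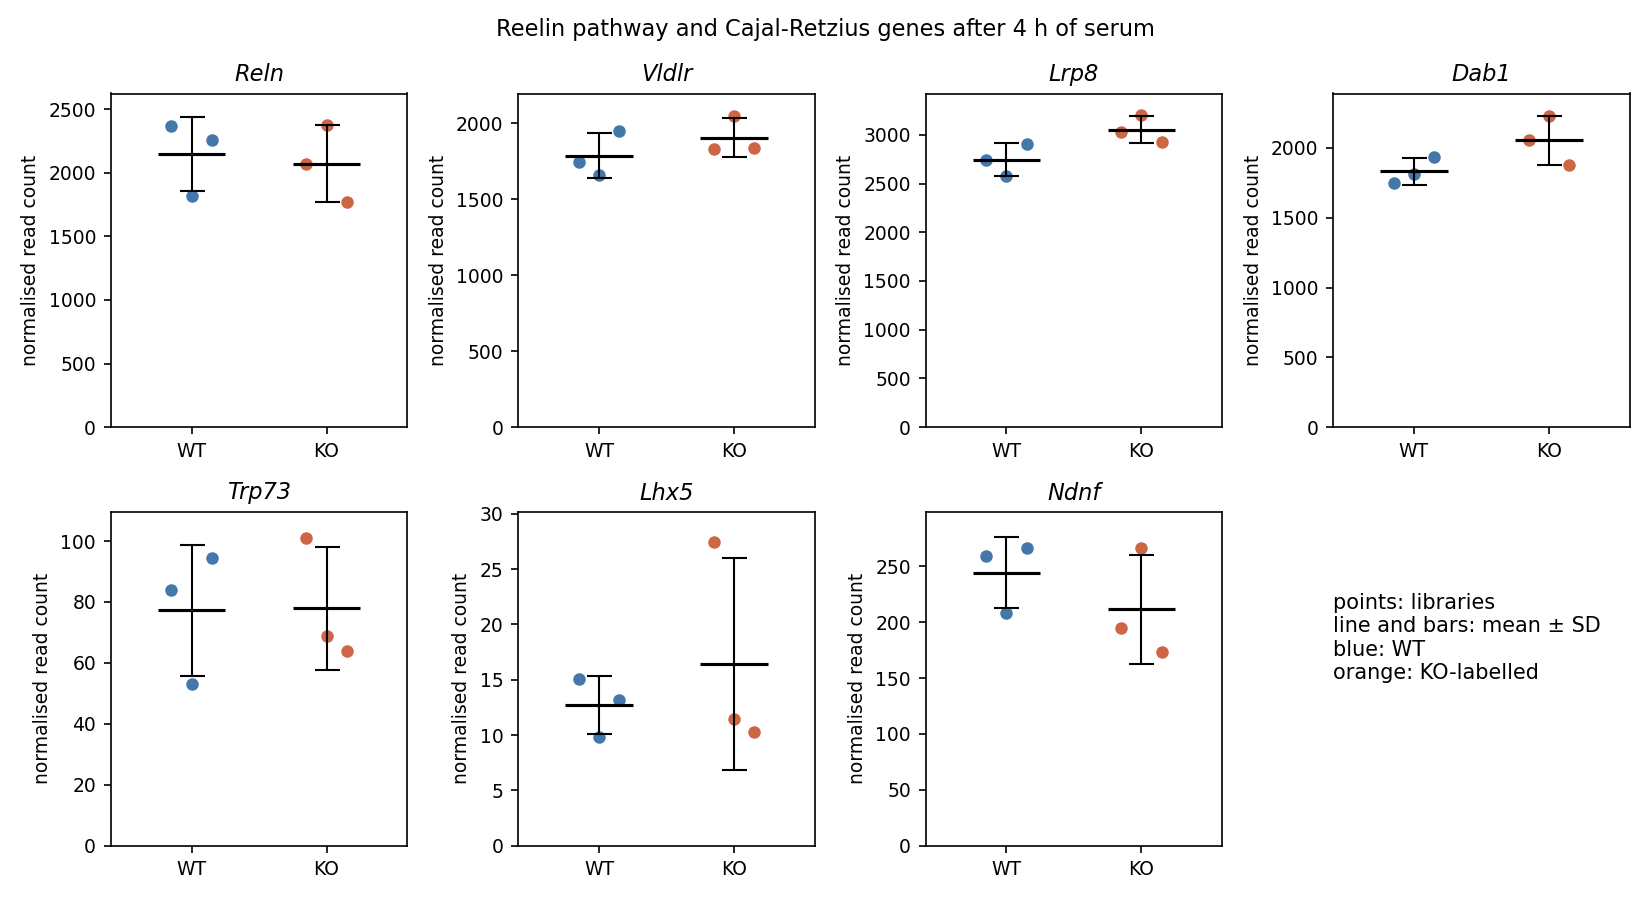
Level of the 7 genes at 4 h as normalised read counts (y axis) in WT and KO-labelled libraries (x axis), with 1 point a library and the mean ± SD as bars. The Lrp8 libraries ran from 2574 to 2910 in WT and from 2924 to 3199 in KO-labelled slices, and the groups overlapped for the other 6 genes.

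In KO minus Het at 24 h the 3 marker genes of Reelin-producing cells had differences that were smaller relative to their errors than that of Reln. Reln was the reason for the choice in this same comparison, so that order carries no weight. Lhx5 (chromosome 5, 120431699 to 120441223, plus strand, with an exon overlap with Gm27199) stood at 1.13, 2.59 and 0.827 CPM in Het females and 2.32, 1.03, 3.54 and 1.43 in KO-labelled females. In males it stood at 1.67, 1.77 and 3.40 CPM in Het and 0.998, 1.54, 1.67 and 0.716 in KO-labelled libraries. The male groups of Lhx5 did not overlap, by a narrow gap (1.669 CPM in KO male 3 against 1.674 in Het male 1). KO-labelled males were the lower group, opposite to Reln, and the share of all genes separating this way was not counted. The KO minus Het log2 fold change of Lhx5 was 0.49 ± 0.45 in females, -0.30 there without the 3 choroid plexus libraries, and -0.88 ± 0.48 in males. The difference between the sexes, -1.37 ± 0.66, did not pass (edgeR, unadjusted p = 0.0522, adjusted p = 0.977), and no gene was called in that test (0% of 16013, 618 at an unadjusted p under 0.05, and 1 by DESeq2).

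At 4 h Lhx5 had normalised reads of 15.03, 9.85 and 13.2 in WT and 27.4, 11.5 and 10.3 in KO-labelled libraries. KO 1 alone was high, and the log2 fold change of 0.23 ± 0.42 (limma, adjusted p = 0.848) became -0.19 without it. The same library was also highest in 8 thalamic and hypothalamic markers, which summed to 457 normalised reads against 214 to 316 in the other 5. Their part in the Lhx5 level was not tested.

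Trp73 (chromosome 4, 154056253 to 154140208, minus strand, with an exon overlap with Trp73os) encodes p73, which Cajal-Retzius and multiciliated cells need. At 24 h it ranged from 7.68 to 10.2 CPM in Het (median 8.79) and 6.49 to 12.2 in KO-labelled libraries (median 9.01), a log2 fold change of -0.01 ± 0.12. The top value was again KO female 3. At 4 h the log2 fold change was 0.02 ± 0.24 (limma, adjusted p = 0.977), on 54 to 95 reads a library.

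Ndnf (chromosome 6, 65671590 to 65712326, plus strand) ranged from 24.7 to 35.4 CPM in Het (median 27.7) and 24.1 to 38.3 in KO-labelled libraries (median 29.8), a log2 fold change of 0.06 ± 0.11. At 4 h it stood at 259.0, 207.9 and 266.3 normalised reads in WT and 195.3, 266.4 and 173.4 in KO-labelled libraries, a log2 fold change of -0.22 ± 0.16 (limma, adjusted p = 0.567). In neither table did the genotypes separate. At 4 h Ndnf and Reln were both low in WT 2, KO 1 and KO 3. The sex tests of Trp73, Lhx5 and Ndnf gave male minus female log2 fold changes of -0.22 ± 0.12, -0.13 ± 0.33 and -0.09 ± 0.11 (edgeR, adjusted p = 0.998 each). Over all genes, 3 of 16013 (0.0187%) were called between the sexes, all 3 lower in libraries labelled male, and none of the 7 was among them. The female group includes KO female 2, whose sex-linked reads go against its label, which limits every sex comparison here. Without that library 9 genes were called, again none of the 7.

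**Figure D3:**
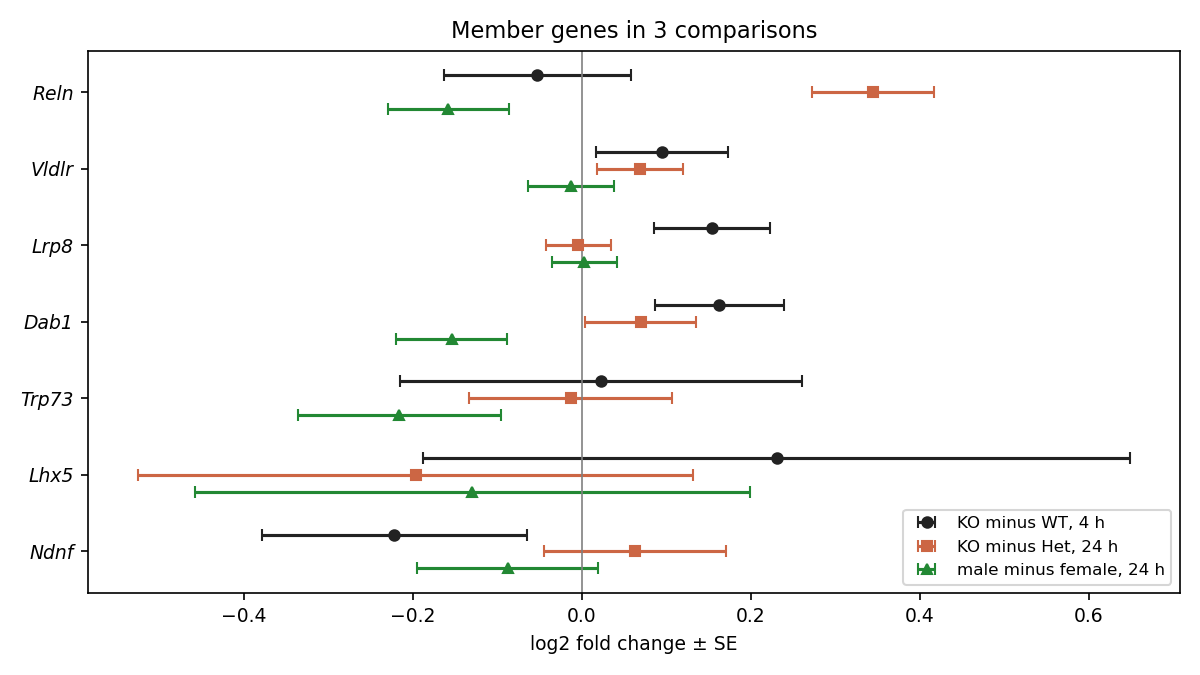
Log2 fold change (x axis, with SE bars) of each of the 7 genes (y axis) for KO minus WT at 4 h, KO minus Het at 24 h and male minus female at 24 h. Reln stood at 0.35 in KO minus Het at 24 h and at -0.05 in KO minus WT at 4 h, and the widest bars belong to Lhx5.

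Other genes that mark Cajal-Retzius cells were set beside Reln library by library. In KO female 3, the LIM factor Lhx1 stood at 3.93 CPM, Ebf2 at 7.36, Ebf3 at 17.4, Nhlh2 at 4.89 and calretinin (Calb2) at 83.4. Each was the highest of the 14 libraries, as was the T-box factor Eomes (15.9), listed here with mitral and tufted cells. The rest of the list, Ebf1 (15.1 CPM), Cxcr4 (27.2), Nr2f2 (32.1) and Cacna2d2 (129.6), did not have its highest value there. Reln in that library was the lowest of the KO-labelled group. In Het male 3 Lhx5 (3.40 CPM), Ebf3 (9.14), Calb2 (49.7) and Eomes (4.28) were the next highest, and Reln there (127.5 CPM) was the lowest of all 14. KO female 1, with the highest Reln of all 14 (213.5 CPM), had Lhx5 at 2.32 CPM, Ebf3 at 3.59, Calb2 at 42.4 and Eomes at 2.40. Of the 9 other Cajal-Retzius genes, 7 had a KO minus Het log2 fold change above 0 at 24 h (median 0.10, against 0.00 over all genes) and 4 of the 8 tested at 4 h did (median -0.06), and none passed in either comparison. Within KO minus Het, 8 of the 9 lay above 0 in females (median 0.43) and 1 of 9 in males (median -0.23). The sex difference was above 0 for 1 of the 9 (median -0.67), and none of them passed. Summed, the 9 had medians of 191.3 CPM in Het and 201.8 in KO-labelled females, and 183.1 and 186.6 in males. The highest library was at 257.5 CPM in Het females, 321.0 in KO-labelled females, 266.2 in Het males and 191.4 in KO-labelled males. The opposite signs by sex thus go with single high libraries. Of these genes Ebf1 had the smallest p in both genotype comparisons, with 0.17 ± 0.13 at 24 h and -0.42 ± 0.17 at 4 h.

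**Figure D4:**
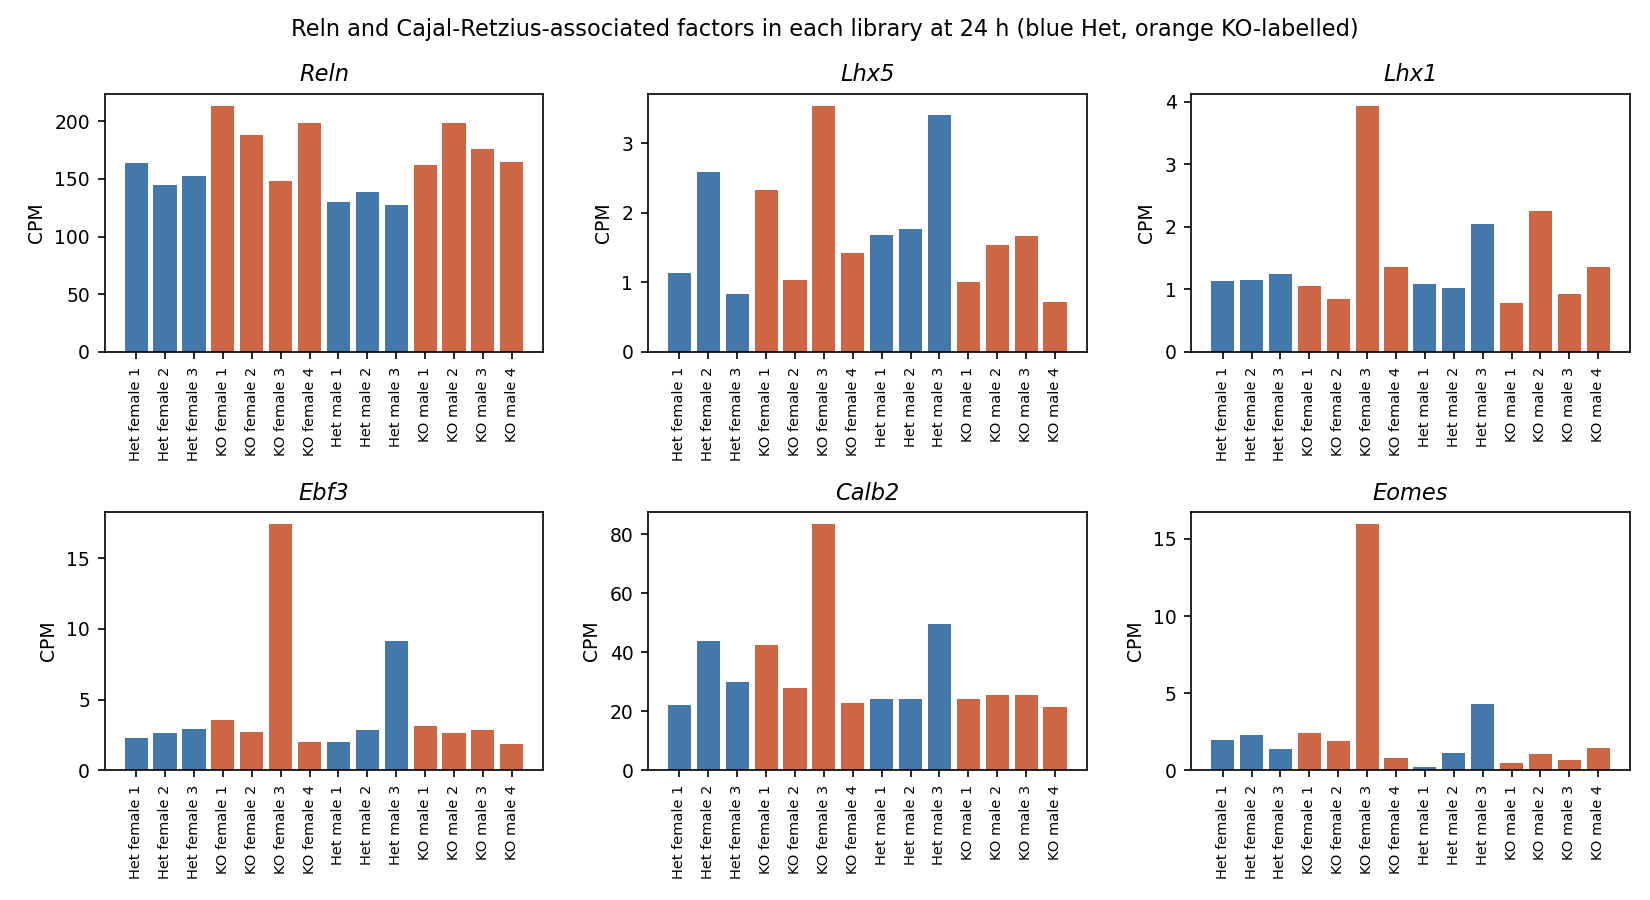
CPM (y axis, from 0) of Reln, the Cajal-Retzius genes Lhx5, Lhx1, Ebf3 and Calb2, and Eomes in each of the 14 libraries at 24 h (x axis), 1 bar a library. Eomes is listed here with mitral and tufted cells. KO female 3 has the highest bar for Lhx5 (3.54 CPM), Lhx1, Ebf3 (17.4), Calb2 and Eomes, and the lowest KO-labelled bar for Reln (147.8).

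Across the 14 libraries, which differ in depth and composition, Pearson's r of log2 CPM is given as a description. Reln had r = 0.72 with Dab1, 0.56 with Vldlr and 0.32 with Ndnf, but -0.31 with Lrp8, -0.29 with Lhx5 and -0.01 with Trp73. It had r = 0.67 with the summed markers of cortical excitatory neurons, against -0.31 with summed interneuron markers and -0.33 with the other Cajal-Retzius genes summed. With summed meningeal markers it had r = 0.49. Over the 6 libraries at 4 h Reln had r = 0.90 with Ndnf, 0.57 with Trp73, 0.55 with Vldlr, 0.43 with Lrp8, 0.33 with Dab1 and 0.28 with Lhx5. There it had r = 0.76 with summed meningeal markers, 0.14 with excitatory, -0.38 with interneuron and -0.21 with the other Cajal-Retzius genes. The order of the members by r was thus another at 4 h than at 24 h. At 24 h Dab1 had r = 0.79 with the summed excitatory markers. Lhx5 by contrast had r = 0.79 with the other Cajal-Retzius genes summed and 0.77 with thalamic and hypothalamic markers, both highest in KO female 3. The 5 genes most like Reln among the 13983 others compared were Bcl6 (0.89), Tmem131 (0.88), Srgap2 (0.87), Peli1 (0.87) and Hecw1 (0.86). Over the 6 libraries at 4 h their r with Reln was 0.90, 0.46, 0.22, 0.29 and 0.46. These genes were chosen by values that include the KO minus Het difference: with group means removed, 0 of the 5 were among the top 5, and their r with Reln was 0.80, 0.70, 0.79, 0.86 and 0.73.

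**Figure D5:**
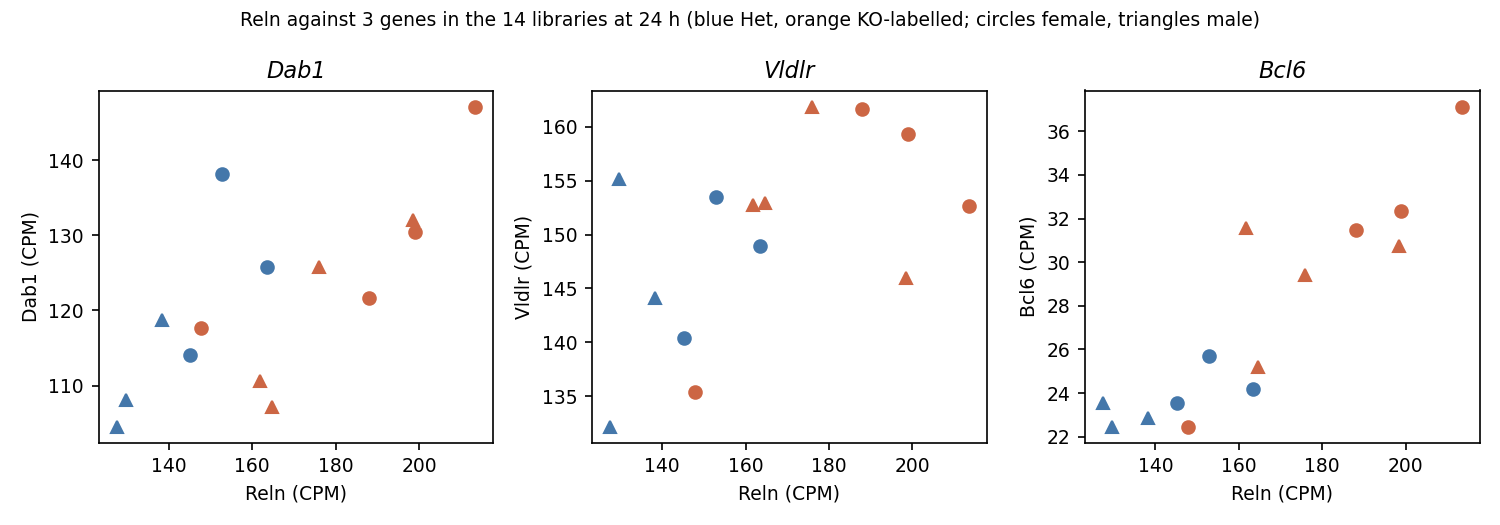
Reln (x axis, CPM) against Dab1, Vldlr and Bcl6 (y axes, CPM) in the 14 libraries at 24 h, by genotype (colour) and labelled sex (shape). All 3 have a positive r with Reln, from 0.56 for Vldlr to 0.89 for Bcl6.

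The other genes of the pathway were followed through 4 lists of 55 genes in all, each of which was tested in both tables. At 4 h, 7 of 15181 genes were called between KO-labelled and WT slices (0.0461%), and 0 of the 55 were. Their median log2 fold change was 0.06 (38 of 55 above 0), against 0.00 over all genes. DESeq2 called 2 of the 55, Ephb2 and Notch1, among 144 called over all genes. Without KO 2 limma called 5, Notch1, Dab2ip, Ephb2, Pik3r2 and Itgb1, among 211 called over all genes. At 24 h 0 of the 55 were called between KO-labelled and Het slices, with a median of 0.02 (38 of 55 above 0) against 0.00 over all genes, and 0 were called between the sexes or in the sex difference of the genotype contrast.

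Among 11 genes of Reelin cleavage, receptor folding and receptor turnover, 6 lay above 0 at 4 h (median 0.03) and 7 at 24 h (median 0.04). Adamts3, the main protease that inactivates Reelin, had normalised read counts of 706.5 ± 48.8 in WT and 847.2 ± 35.8 in KO-labelled slices at 4 h (SD, n = 3 each), a log2 fold change of 0.26 ± 0.08 (limma, adjusted p = 0.190). Plat, tissue plasminogen activator, had -0.14 ± 0.08 (adjusted p = 0.447). At 24 h Lrpap1, the receptor chaperone, had 0.06 ± 0.04 and Snx17, a sorting nexin that recycles APOER2, -0.06 ± 0.05 (edgeR, adjusted p = 0.814 and 0.839).

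Among 12 other ligands and co-receptors, 6 lay above 0 at 4 h (median -0.01) and 10 at 24 h (median 0.04). Ephb2, an ephrin receptor, had 1355 ± 86.5 normalised reads in WT and 1698 ± 31.0 in KO-labelled slices at 4 h, a log2 fold change of 0.33 ± 0.07 (limma, adjusted p = 0.0984). Notch1, whose signalling interacts with the Reelin pathway, had 928.8 ± 43.4 and 735.8 ± 51.3, a log2 fold change of -0.34 ± 0.08 (adjusted p = 0.131). At 24 h Thbs1, the receptor ligand thrombospondin-1, had 0.34 ± 0.12 and Itga3, an integrin subunit that binds Reelin, 0.16 ± 0.08 (edgeR, adjusted p = 0.738 and 0.758). Thbs1 at 4 h lay on the other side of 0, at -0.29 ± 0.13.

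Of 14 genes listed with DAB1 kinases, adaptors and degradation factors, 10 lay above 0 at 4 h (median 0.06) and 10 at 24 h (median 0.01). Dab2ip, a DAB1-binding GTPase-activating protein, had 0.26 ± 0.07 and Socs7, which marks phosphorylated DAB1 for degradation, 0.17 ± 0.07 at 4 h (limma, adjusted p = 0.153 and 0.294). At 24 h Nck2 had 0.08 ± 0.05 and the kinase Yes1 -0.08 ± 0.07 (edgeR, adjusted p = 0.835 and 0.874).

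Of 18 PI3K, cytoskeletal and synaptic effectors, 16 lay above 0 at 4 h (median 0.14) and 11 at 24 h (median 0.03). The regulatory PI3K subunits Pik3r1 and Pik3r2 had 0.26 ± 0.08 and 0.24 ± 0.08 at 4 h (limma, adjusted p = 0.189 and 0.203). At 24 h Grin2a, an NMDA receptor subunit, had 0.35 ± 0.12 and Map1b, a microtubule-associated protein, 0.20 ± 0.09 (edgeR, adjusted p = 0.738 each). Both also lay above 0 at 4 h, at 0.38 ± 0.15 and 0.32 ± 0.11 (limma, adjusted p = 0.279 and 0.234).

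Markers of several cell types also lay to one side of 0 at 4 h. All 10 markers of cortical excitatory neurons lay above 0 (median 0.31), and they summed to 16255 to 17172 normalised reads in WT and 19091 to 21045 in KO-labelled libraries. Tbr1 and Neurod2 had the smallest p, with 0.46 ± 0.09 and 0.39 ± 0.08 (limma, adjusted p = 0.0909 each). All 6 pan-neuronal markers lay above 0 (median 0.10). All 8 astrocyte and radial glia markers lay below 0 (median -0.20), as did all 7 of endothelium and pericytes (-0.32), all 12 of meninges (-0.43) and all 8 of ependymal and multiciliated cells (-0.63). None of these genes was called, none of these lists held a marker at 0 reads in any library, and their part in the values of Lrp8, Dab1 and the effectors was not tested.

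At 24 h, 9 of the 10 excitatory markers lay above 0 in KO minus Het (median 0.09), with sums of 908.9 to 1307 CPM over the Het and 1119 to 1312 CPM over the KO-labelled libraries. Neurod2 had 0.18 ± 0.08 (edgeR, adjusted p = 0.758). Of 18 interneuron markers, 8 lay above 0 (median -0.03). The interneuron factors Sp8 and Dlx1 had -0.57 ± 0.15 and -0.24 ± 0.10 (adjusted p = 0.738 each). At 4 h 7 of those 18 lay above 0 (median -0.03). All 8 choroid plexus markers lay above 0 at 24 h (median 0.99), with Ttr, its transthyretin gene, at 0 reads in 5 of 14 libraries and at 48186 in KO female 3. Of the meningeal markers, 9 of 12 lay above 0 (median 0.04). By sex, 2 of these 12 lay above 0 in females (median -0.14) and 10 in males (median 0.19), and the sex difference was above 0 for 10 (median 0.36), with none passing. Of the astrocyte and radial glia markers 2 of 8 lay above 0 (median -0.10), and 1 of 8 did in males (median -0.21). They summed to 3113 to 5307 CPM over the Het and 3367 to 4225 CPM over the KO-labelled libraries. Fabp7, a fatty acid binding protein of radial glia, had -0.35 ± 0.07 (edgeR, adjusted p = 0.493). Endothelial and pericyte markers had 3 of 7 above 0 (median -0.07), and ependymal and multiciliated markers 3 of 8 (median -0.04). Mitral and tufted cell markers had 2 of 4 tested above 0 (median 0.08), and thalamic and hypothalamic markers 2 of 6 tested (median -0.09). Of the thalamic and hypothalamic list, Foxb1 was at 0 reads in 11 of the 14 libraries, Sim1 in 7 and Otp in 6. The part of these markers in the Reln difference was not tested. The Reln log2 fold change was 0.37 without the 3 choroid plexus libraries. These were all KO-labelled and included KO female 3, the KO-labelled library with the lowest Reln.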

How the data were processed

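RNA from 20 libraries of mouse forebrain slices was analysed as 2 tables. Per the submitters' processing notes, TopHat2, HTSeq and DESeq2 1.38.3 were used with GRCm38 (mm10). The authors deposited raw read counts per gene for the 14 libraries at 24 h. For the 6 at 4 h they deposited a signal, gene counts divided by a size factor per library. Multiplying by the factor gave whole reads within 0.05 for 100% of values, and the factors equal median-of-ratios factors, so these values are called normalised read counts. Symbols and coordinates came from GENCODE M21 (19673 of 19722 identifiers at 4 h and 51633 of 51912 at 24 h matched). Whether counting used strand is not given in the sources used here, so reads of genes with overlapping exons on opposite strands may be shared.

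At 4 h, limma 3.58.1 with a mean-variance trend was run on log2(value + 1) for genes with a mean of at least 10. Folds on that scale understate changes of low genes. At 24 h, edgeR 4.0.16 (quasi-likelihood, TMM scaling, default expression filter) fitted 1 mean per genotype and labelled sex. P-values were adjusted over all genes by Benjamini-Hochberg, with a threshold of 0.05. CPM and RPKM used TMM-scaled totals and the union of exons. Scripts were tested on simulated data. No 2 replicates agreed within sampling noise. The tables were normalised separately, and levels are not compared between them.

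Same-numbered WT and KO libraries at 4 h deviated together, so the numbers may name pairs. The r of deviations from group means was 0.264, 0.140 and 0.175, against -0.218 to 0.0638 for other pairs. WT 1 and KO 1, with r of 0.264, also held the most Xist reads at 4 h. The main 4 h fit was not blocked on the numbers, and its errors and p-values are those given in the Results. Blocked on these numbers, the fit called 38 genes at 4 h instead of 7 and 0 of the 7 described here.

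The genes described and all lists were chosen with earlier results of these data known. Named genes are the 7, for each other list the 2 of smallest p in KO minus WT at 4 h and in KO minus Het at 24 h (some are not repeated in the text, and 1 is not reported here), and the 5 most like Reln among genes with a mean log2 CPM of at least 1. Lists covered the pathway and other Cajal-Retzius genes, interneurons, mitral and tufted cells, thalamus and hypothalamus, excitatory neurons, choroid plexus, ependymal cells, meninges, endothelium, astrocytes, microglia and all neurons. The microglial list had 2 of 6 genes above 0 at 4 h (median -0.08) and 1 of 6 at 24 h (median -0.12).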

Additional observations from a re-analysis of the deposited data

Results flagged for a closer look

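In KO female 3, Lhx1 stood at 3.93 CPM against 0.841 to 1.35 in the other 3 KO-labelled female libraries. By Dixon's test it lay just outside their spread, with a gap over the range of 0.836 against a critical value of 0.829. Ebf2 in the same library stood at 7.36 CPM against 0.654 to 1.35, and Ebf3 at 17.4 against 1.98 to 3.59. The other Cajal-Retzius genes, Lhx1, Ebf2 and Ebf3 among them, summed there to 321.0 CPM against 181.4 to 202.4. In KO male 3, choroid plexus markers summed to 500.5 CPM against 21.0 to 26.1 in the other KO-labelled males. In KO male 1, thalamic and hypothalamic markers summed to 18.1 CPM against 20.04 to 20.29. Only the KO-labelled groups at 24 h were tested, so the flags do not bear on outlying Het or 4 h libraries. Of 56 groups tested 6 were flagged, and chance flags about 1 in 20. The flags are not independent, since a sum holds genes that were also tested alone.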

How the results depend on the processing

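Of the tested fold changes of the 7 genes, none crossed the threshold under any alternative run. Genes called in KO minus WT at 4 h numbered 7, and 144 with DESeq2, 28 with a robust spread, 38 with the replicate block and 1 to 211 with 1 library left out (211 without KO 2, 1 without WT 1). Of the 55 pathway genes, DESeq2 called 2 there, and leaving out a library gave 0 to 5. In male minus female at 24 h, 3 genes were called, 215 with no filter (2 pathway genes), 6 with DESeq2, 7 with limma-voom and 2 to 9 with 1 library left out (9 without KO female 2, whose sex-linked reads go against its label). In the sex difference of KO minus Het, 0 were called, 165 with no filter (1 pathway gene) and 1 with DESeq2. In KO minus Het, 0 were called, 263 with no filter (4 pathway genes), 10 with DESeq2, 1 with the replicate block and 0 to 2 with 1 library left out (2 without Het male 3, 1 without KO female 3). The cause was not tested.

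Near 0, signs turned: Trp73 at 4 h was -0.0017 with edgeR, and Lrp8 in male minus female -0.00113 with no filter. With 1 library left out, KO minus WT at 4 h ran from -0.17 to 0.055 for Reln, -0.22 to 0.19 for Trp73 and -0.19 to 0.48 for Lhx5. Male minus female ran from -0.042 to 0.018 for Vldlr, -0.0092 to 0.018 for Lrp8 and -0.32 to 0.19 for Lhx5. The sex difference ran from -0.0077 to 0.11 for Vldlr, -0.0057 to 0.14 for Dab1, -0.18 to 0.040 for Trp73 and -0.25 to 0.045 for Ndnf. Reln in KO minus Het ran from 0.31 to 0.40, and Lhx5 from -0.40 to 0.12 (0.12 without Het female 2). Of the 5 genes most like Reln, Spearman's measure shared 2 and residuals from group means 0.

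At 24 h libraries with the same number in their titles correlated from -0.149 to 0.201. The title numbers there were taken to name libraries only, and the replicate block changed no call of a member (Reln 0.34). The submitters' own library names number the KO-labelled females and some Het males otherwise. Pairing by those numbers was not tested, so paired libraries at 24 h are not excluded. Depth limits Lhx5, on 9 to 63 reads a library. The fits without the choroid plexus libraries and with the presence of Xist reads as a covariate at 4 h were chosen after seeing the data; the latter changed no call of the 7 genes.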
